A study of Mus musculus with 6 samples.

Results

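The serpins are a family of 65 genes among the 24529 listed in the deposited table of postnatal day 16 mouse skin, taken as every gene symbol that begins with Serpin, a clade letter from a to i and a digit. They were compared between 3 mesenchymal cell populations isolated by fluorescence-activated sorting of back skin taken from female CD1 mice 16 days after birth, in early catagen, the stage at which the lower hair follicle regresses. The follicle populations were the dermal sheath (DS), a contractile layer around the follicle, and the dermal papilla (DP), the signalling cluster of cells at its base, and the population they were set against was dermal fibroblasts (DF) of the surrounding dermis. Each had 2 biological replicates, 6 libraries in all. The labels give no mutation or treatment in any population, and do not say whether animals were pooled or which markers set the sort gates. The rule for membership is the symbol and reads no measured value, but the family was taken up with earlier results of these data known.

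A serpin folds into a strained shape with an exposed loop that a protease cuts as if it were a substrate. In inhibitory members the cut makes the loop snap into the body of the protein and traps the protease. Some members have lost this activity and work as hormone carriers, as signalling proteins or, in the case of Serpinh1 (HSP47), as a chaperone of procollagen in the endoplasmic reticulum. In skin, serpins are known as inhibitors of plasminogen activators, thrombin, complement and leukocyte proteases.

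By role, 31 of the 65 genes encode secreted inhibitors or close relatives of them, 3 encode secreted proteins that are not inhibitors, 1 is the collagen chaperone, 28 belong to clade B, whose proteins mostly stay inside the cell, and 2 are pseudogenes in RefSeq (Serpina3h and Serpina4-ps1). A test was made for the 20 genes with at least 1 RPKM (reads scaled by transcript length and by library total, the authors' unit) in at least 2 libraries. These were 10 genes of the secreted inhibitor class, Serpinf1, Serpinh1, 7 clade B genes and Serpina3h. Serpina3g was counted in the secreted class by its relatives, although its product stays inside the cell. Of the other 45 genes, 17 were at 0 in every library, and the highest value of any of them was 2.04 RPKM. A gene high in 1 population can pass this filter through that population alone, so the counts below describe the 20 genes and not the family.

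The depth of the libraries relative to DF replicate 2, estimated from the smallest values above 0, ranged from 0.39 in DS replicate 1 to 1.0, so values near 0 were least precise in DS. The microRNA gene Mir6236 held between 46.6% and 77.1% of the summed RPKM. Over all 14664 tested genes the median log2 difference came to 0.53 between DS and DF, 0.71 between DP and DF and -0.17 between DS and DP, and median-ratio scaling of the libraries brought these to 0.00, 0.02 and 0.00. The scaling therefore matters for any difference of about that size. Markers mostly went with the labels: all 8 sheath markers were higher in DS than in DF and in DP, and all 10 papilla markers were higher in DP than in DF. Of the papilla markers, 9 were lower in DS than in DP, and Corin was higher in DS (log2 difference 1.30). In DS 3 papilla markers were higher than in DF and 3 were lower (Crabp1, Notum and Hhip). In DP 3 sheath markers were higher than in DF and 1 was lower (Itga11). Of 9 fibroblast markers, 8 were lower in DS and in DP than in DF. The exception, Pdgfra, was higher in DS than in DF (2.43) and not called in DP. For 2 libraries against 2, the smallest two-sided p of an exact permutation test is 0.333, so each adjusted p comes from limma, which pools the spread over genes and populations. In sorted bulk RNA, fewer cells that express a gene and less RNA per cell cannot be told apart.

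The widest shared pattern was in the Serpina3 genes, which lie side by side on mouse chromosome 12 and are related to human antichymotrypsin. Most encode secreted inhibitors, but the product of Serpina3g stays inside the cell and Serpina3h is a pseudogene. All 7 that were tested were lowest in DS and highest in DF, with DP between. The promoter windows of 5 of them are shown because these neighbours shared an order of levels and because their sequences are alike. They come from RefSeq (build GRCm38.p6), run from 250 bases before to 50 bases after the start, and leave out Serpina3h and Serpina3m. The sequences read 5′ to 3′ along the gene, and capitals mark the runs of 10 or more bases present in all 5.
Serpina3c: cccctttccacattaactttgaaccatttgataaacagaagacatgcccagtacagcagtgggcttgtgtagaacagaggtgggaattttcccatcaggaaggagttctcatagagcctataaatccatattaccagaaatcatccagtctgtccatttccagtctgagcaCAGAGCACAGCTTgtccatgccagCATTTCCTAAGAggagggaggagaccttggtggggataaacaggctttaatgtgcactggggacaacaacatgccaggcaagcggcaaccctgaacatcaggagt
Serpina3f: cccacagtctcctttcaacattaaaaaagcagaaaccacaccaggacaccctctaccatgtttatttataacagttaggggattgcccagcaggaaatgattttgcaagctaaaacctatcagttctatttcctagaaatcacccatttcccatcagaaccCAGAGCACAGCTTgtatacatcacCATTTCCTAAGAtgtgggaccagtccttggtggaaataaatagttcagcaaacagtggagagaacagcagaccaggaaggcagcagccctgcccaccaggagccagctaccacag
Serpina3g: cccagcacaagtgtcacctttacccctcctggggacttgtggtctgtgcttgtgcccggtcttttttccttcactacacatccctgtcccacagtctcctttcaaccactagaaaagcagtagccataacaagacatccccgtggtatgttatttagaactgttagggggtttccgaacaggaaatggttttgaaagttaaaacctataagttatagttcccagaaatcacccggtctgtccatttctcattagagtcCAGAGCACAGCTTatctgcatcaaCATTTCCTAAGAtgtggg
Serpina3i: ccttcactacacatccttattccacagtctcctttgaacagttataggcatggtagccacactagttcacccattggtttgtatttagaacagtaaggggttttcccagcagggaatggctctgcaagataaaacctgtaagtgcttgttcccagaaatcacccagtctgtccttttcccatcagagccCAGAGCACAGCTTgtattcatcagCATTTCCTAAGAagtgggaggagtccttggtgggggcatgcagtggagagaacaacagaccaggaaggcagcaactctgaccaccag
Serpina3n: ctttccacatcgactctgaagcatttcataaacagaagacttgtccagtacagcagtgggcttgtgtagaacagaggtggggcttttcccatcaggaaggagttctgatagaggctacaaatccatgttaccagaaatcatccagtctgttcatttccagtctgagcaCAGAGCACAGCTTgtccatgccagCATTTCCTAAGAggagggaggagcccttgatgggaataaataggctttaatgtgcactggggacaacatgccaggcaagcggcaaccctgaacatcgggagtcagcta
These windows are chr12:104153823-104154122 on the minus strand for Serpina3c, and on the plus strand chr12:104214294-104214593 for Serpina3f, chr12:104235897-104236196 for Serpina3g, chr12:104262872-104263171 for Serpina3i and chr12:104406458-104406757 for Serpina3n. For Serpina3f, with 2 windows, the one with the lower coordinate is shown.

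The windows of Serpina3c and Serpina3n were the most alike, with 275 identical bases over 306 aligned columns (89.9%). These shares count every alignment column, gaps included. In the other pairs they ranged from 37.4% for Serpina3g and Serpina3n to 67.7% for Serpina3f and Serpina3i. The windows of Serpina3g and Serpina3n, 300 bases each, filled 393 columns, with the shared runs further downstream in Serpina3g. The low shares of Serpina3g thus include many gaps and do not give the identity of its paired bases. Both capitalised runs are in all 5 windows by definition, and 11 bases lay between them in each. The run CAGAGCACAGCTT was in 0.0213% of the 32851 mouse windows of this length, either strand, and CATTTCCTAAGA in 0.0365%. Among serpin genes with a window, the second run was also in Serpina3b, whose highest value was 0.176 RPKM, in a DF library. Counted from the start, the first run began at -79 in Serpina3c, -89 in Serpina3f, -61 in Serpina3i and -82 in Serpina3n, and at 9 in Serpina3g. The STAT motif TTCNNNGAA, which reads the same on both strands, was in 3 of the 5 windows (Serpina3f, Serpina3g and Serpina3i) against 8.3% of all windows. TATAAA, counted on either strand, was in 2 (Serpina3c as printed, Serpina3f only on the opposite strand) against 13.6%. The AP-1 motif TGANTCA was in none against 7.81%. A match to these letters is a description of the sequence only. The windows belong to related neighbours, so matches in several of them are not independent.

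Serpina3n, an inhibitor of granzyme B and leukocyte elastase in the mouse, was the most abundant of the group. It had 1.20 and 0.231 RPKM in the DS libraries and 23.4 and 33.5 in DP, against 123 and 107 in DF. No library of 1 population overlapped those of another. Its log2 difference was -6.14 in DS against DF (SE 0.33, adjusted p = 0.000198), -2.0 in DP against DF (SE 0.33, adjusted p = 0.00506) and -4.14 in DS against DP (SE 0.33, adjusted p = 0.000596). Serpina3c, a rodent member of the same group, was listed at 0 in both DS libraries and had 0.478 and 0.684 RPKM in the DP libraries, against 17.0 and 14.8 in DF. It was thus close to 0 in both follicle populations and readily detected in fibroblasts. Its log2 difference was -4.08 for DS minus DF (SE 0.20, adjusted p = 0.000156) and -3.42 for DP minus DF (SE 0.20, adjusted p = 0.000255), while DS minus DP was -0.66 (adjusted p = 0.0528). Serpina3h, a transcribed pseudogene in RefSeq, had 3.08 and 1.26 RPKM in DS and 6.74 and 8.18 in DP, against 16.9 and 16.3 in DF. Its libraries kept the same order without overlap, with log2 differences of -2.53 in DS against DF (adjusted p = 0.00275), -1.06 in DP against DF (adjusted p = 0.0326) and -1.47 in DS against DP (adjusted p = 0.0192).

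The other 4 were lower in level and had the same order. Serpina3i averaged 0.673 ± 0.366 RPKM in DS and 3.21 ± 0.211 in DP, against 8.16 ± 0.722 in DF (mean ± SD of n = 2 libraries, as in later values of this form). Serpina3m averaged 0.0324 ± 0.0459 RPKM in DS and 1.03 ± 0.053 in DP, against 4.64 ± 1.07 in DF. Serpina3f averaged 0.0985 ± 0.012 RPKM in DS and 1.16 ± 0.475 in DP, against 3.77 ± 0.647 in DF. Serpina3g, which is known from lymphocytes and myeloid cells, averaged 0.700 ± 0.385 RPKM in DS and 1.74 ± 0.149 in DP, against 2.79 ± 0.0845 in DF. In none of these 4 did a library of 1 population reach those of another. Of the 7 tested, 7 were called lower in DS than in DF and 6 in DP than in DF, the exception being Serpina3g (-0.47, adjusted p = 0.124). Between DS and DP, 3 of the 7 were called, Serpina3n, Serpina3h and Serpina3i, all lower in DS. The background for these counts is 5.95% of all tested genes called lower in DS than in DF, 6.87% lower in DP than in DF and 12.8% lower in DS than in DP. The Serpina3 genes were set apart within the family after their values were seen, and neighbours with related sequence are not independent observations. Serpina3c, Serpina3f and Serpina3m would not have passed the filter without their DF values, which bears on their tests and on these counts.

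Each direction held with median-ratio scaling, with which Serpina3g was also called lower in DP than in DF (-1.07, adjusted p = 0.0176). Several calls rested on single libraries, most of all those of Serpina3h. For DP minus DF, the call ended without DF replicate 1 for Serpina3f (adjusted p = 0.0542), Serpina3i (0.0513) and Serpina3h (0.117), without DP replicate 1 for Serpina3f (0.0566) and Serpina3h (0.129), without DP replicate 2 for Serpina3i (0.0542) and Serpina3h (0.0788), and without DF replicate 2 for Serpina3h (0.0877). The DS minus DF call of Serpina3g ended without DF replicate 1 (adjusted p = 0.0504) or DS replicate 2 (0.0579). The DS minus DP call of Serpina3i ended without DP replicate 1 (0.0586), and that of Serpina3h without DP replicate 1 (0.0665), DP replicate 2 (0.0939) or DS replicate 2 (0.0547). The DP minus DF call of Serpina3h also ended with a pseudocount of 0.1 RPKM (0.0643) and with no filter (0.0551). A pseudocount of 0.1 RPKM moved the DS minus DF difference of Serpina3c to -7.32, and that of Serpina3m to -5.19 against -2.44 with a pseudocount of 1. With it, Serpina3c, Serpina3f and Serpina3m were also called lower in DS than in DP (-2.75, -2.61 and -3.13).

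Reads could be divided between these neighbours in part only. Of the distinct 50-base stretches of their GENCODE M21 transcripts, the share also present in another gene's transcripts was 4.25% for Serpina3c, 6.9% for Serpina3n, 10.6% for Serpina3f, 15.5% for Serpina3g, 15.9% for Serpina3i, 19.1% for Serpina3m and 21.9% for Serpina3h, so Serpina3h and the other members with a large share are less certain as separate genes. The other tested serpins outside the group were at 9.92% for Serpinb6c, 2.81% for Serpinb1a and under 1% for the rest. The summed level of 15 leukocyte markers was also highest in DF, at 55.6 to 76.2 RPKM. It was 18.6 to 26.6 RPKM in DS and 15.7 to 16.6 in DP. Of 11 tested markers, 7 were lower in DS and 8 in DP than in DF, where 5.95% and 6.87% of all tested genes were. Cd207 was at 0 in DS and C1qb in DP. The leukocyte sum was not lower in DS than in DP, and its part in the fibroblast level was not tested.

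**Figure D1:**
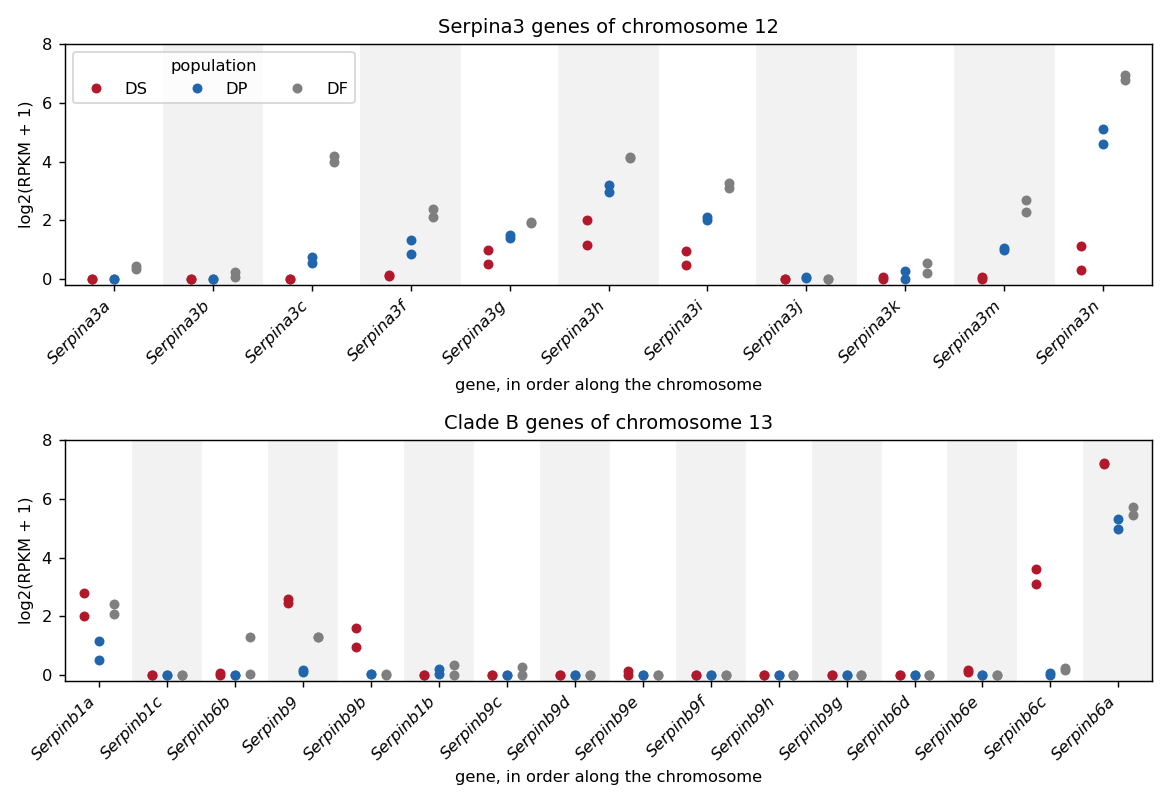
Levels of Serpina3 genes of chromosome 12 (top) and clade B genes of chromosome 13 (bottom) in gene order, as log2(RPKM + 1), with 1 point per library and 2 libraries for each of DS, DP and DF. In the top panel every tested gene has its DS points lowest and its DF points highest, and in the bottom panel the DS points are above all others for Serpinb6a, Serpinb6c, Serpinb9 and Serpinb9b, while those of Serpinb1a overlap DF.

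Among the other secreted inhibitors, Serpine2 was highest in DP and Serpind1 in DS. Serpine2 (protease nexin-1) inhibits thrombin, plasmin and the plasminogen activators and binds to cell surface heparan sulphate. It had 62.6 and 94.7 RPKM in DS and 751 and 826 in DP, against 7.38 and 15.5 in DF. The 3 populations did not overlap, and the mean in DP was 68.9 times that in DF. DP minus DF came to 6.07 on the log2 scale (SE 0.36, adjusted p = 0.00027), DS minus DF to 2.73 (SE 0.36, adjusted p = 0.00323) and DS minus DP to -3.34 (SE 0.36, adjusted p = 0.00168). The summed level of 12 endothelial markers was also highest in DP, with 12.7 to 34.0 RPKM in DS and 62.9 to 77.4 in DP, against 15.1 to 18.2 in DF. Plvap (26.7 ± 1.68 RPKM) and Flt1 (20.1 ± 2.07) were the largest parts of the DP sum. Of 10 tested, 4 were higher in DP than in DF (2 after median-ratio scaling, with 1 lower), and none was at 0 in both libraries of a population. The summed level of 10 pericyte and vascular smooth muscle markers was 165 to 175 RPKM in DS and 146 to 155 in DP, against 20.4 to 23.1 in DF, where Higd1b was at 0. Mcam (105 ± 6.57 RPKM) and Cspg4 (46.4 ± 5.13) were the largest parts of the DS sum, and Cspg4 (122 ± 2.20) of the DP sum. Of 9 tested, 4 (Mcam, Cspg4, Myh11 and Cnn1) were called higher in DS than in DF, but 3 (Abcc9, Kcnj8 and Des) were called lower. In DP, 2 (Rgs5 and Cspg4) were called higher than in DF and none lower. Median-ratio scaling made this 1 higher (Cspg4) and 1 lower (Abcc9). The background was 20.6% of genes higher and 5.95% lower for DS, and 31.5% higher for DP. The part of either marker set in the Serpine2 and Serpind1 levels was not tested.

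Serpind1 (heparin cofactor II), a thrombin inhibitor that dermatan sulphate and heparin activate and that is best known as a liver and plasma protein, was abundant in DS alone. It had 51.7 and 45.5 RPKM in DS and 2.16 and 1.014 in DP, against 0.518 and 0.659 in DF. Both DS libraries lay far above the other 4, and the DS mean was 82.7 times that of DF. On the log2 scale DS exceeded DF by 4.96 (SE 0.27, adjusted p = 0.000209) and DP by 4.29 (SE 0.27, adjusted p = 0.000278), while DP minus DF was 0.67 (adjusted p = 0.0795), 1.21 and called with a pseudocount of 0.1 RPKM (adjusted p = 0.0459), and 0.27 with median-ratio scaling (adjusted p = 0.452). The other calls of Serpind1 and those of Serpine2 held in all 14 alternatives.

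Serping1 (C1 inhibitor), which blocks the complement proteases C1r and C1s and plasma kallikrein, was the most abundant secreted inhibitor in DS and DF. It had 690 and 666 RPKM in DS and 313 and 311 in DP, against 869 and 833 in DF. The DP libraries were the lowest, with a log2 difference of -1.44 for DP minus DF (SE 0.11, adjusted p = 0.000447) and 1.12 for DS minus DP (SE 0.11, adjusted p = 0.00106). DS minus DF was -0.33 (SE 0.11, adjusted p = 0.0523), and -0.97 with median-ratio scaling (adjusted p = 0.00886), short of the minimum difference of 1 in either case. Of the 21 secreted inhibitor genes that were not tested, Serpina10, the inhibitor of factor Xa that works with protein Z, had the highest value, with 1.74 and 0.715 RPKM in DS and 0.347 and 0.328 in DP, against 0.0932 and 0.218 in DF. The neuroserpin gene Serpini1, antithrombin (Serpinc1) and the alpha-2-antiplasmin gene Serpinf2 stayed below 1 RPKM in every library.

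Serpinf1 (PEDF) is a secreted serpin with no inhibitory activity, known for blocking the growth of blood vessels. It had 433 and 417 RPKM in DS and 363 and 416 in DP, against 1192 and 976 in DF. Both follicle populations lay well below fibroblasts, and the lower DS library was next to the higher DP library. Relative to DF, Serpinf1 fell by 1.34 in DS (SE 0.15, adjusted p = 0.0018) and by 1.47 in DP (SE 0.15, adjusted p = 0.00113) on the log2 scale, and DS minus DP was 0.13 (SE 0.15, adjusted p = 0.536). The other genes of this class, the hormone carriers Serpina6 and Serpina7, were at 0 in every library.

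**Figure D2:**
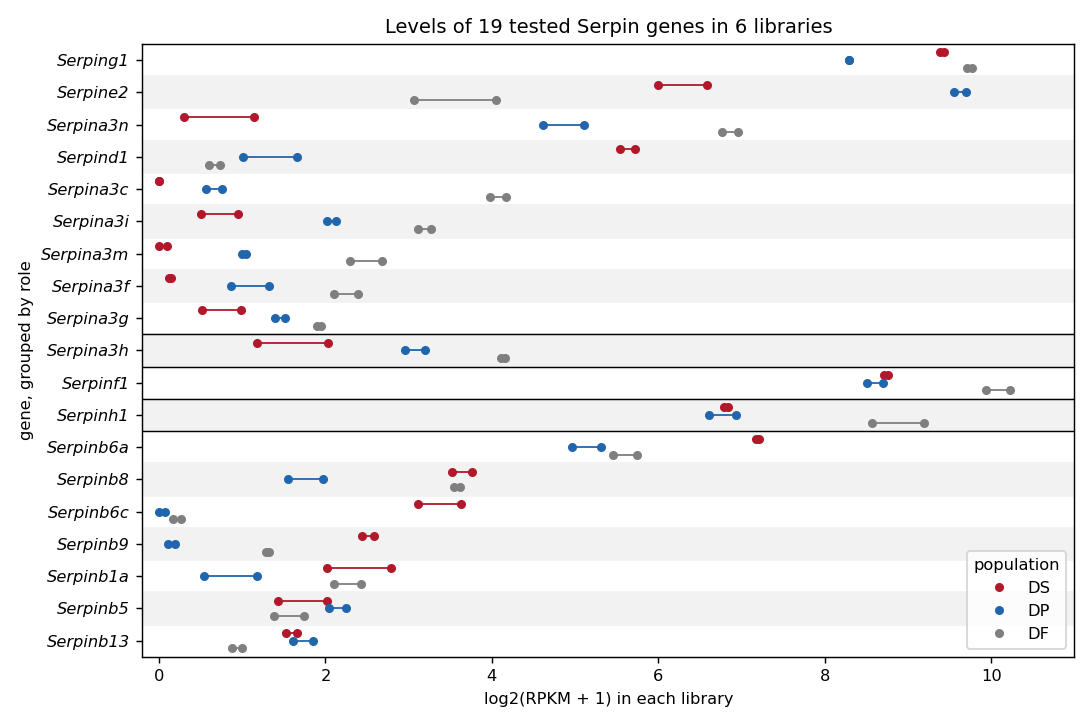
Level of 19 tested serpin genes as log2(RPKM + 1), with 1 point per library and a line joining the 2 libraries of DS, DP and DF, grouped by role from secreted inhibitors at the top to clade B genes at the bottom. Serpine2 has its DP points far to the right, Serpind1, Serpinb6a and Serpinb6c their DS points, and the Serpina3 genes, Serpinf1 and Serpinh1 their DF points.

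Serpinh1, the procollagen chaperone, stood apart from the inhibitors in what it could be set against. It had 109 and 113 RPKM in DS and 96.9 and 121 in DP, against 586 and 379 in DF. DS and DP overlapped and both lay below DF. Serpinh1 was called lower in DS (log2 difference -2.07, SE 0.24, adjusted p = 0.002) and in DP (-2.11, SE 0.24, adjusted p = 0.00155) than in DF, and DS minus DP was 0.04 (SE 0.24, adjusted p = 0.92). The fibroblast markers used above include Col1a1, Col1a2 and Col3a1, whose products Serpinh1 binds.

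The summed RPKM of the collagens differed by more than Serpinh1 did, through 3 of them. The summed RPKM of 19 collagen genes was 3688 and 3491 in DS and 2684 and 3016 in DP, against 78861 and 68179 in DF. Per 100 RPKM of these collagens, Serpinh1 came to 2.96 and 3.24 RPKM in DS and 3.61 and 4.01 in DP, against 0.743 and 0.555 in DF. The fibrillar chains Col1a1, Col1a2 and Col3a1 made up 37.7% and 37.6% of the collagen sum in DS and 46.9% and 43.3% in DP, against 96.1% and 96.1% in DF. Without these 3, a division made after the values were seen, Serpinh1 came to 4.76 and 5.19 RPKM per 100 RPKM of the other 16 collagens in DS and 6.80 and 7.08 in DP, against 19.3 and 14.3 in DF. The ratio, which lies within each library and needs no scaling between libraries, was thus higher in the follicle populations than in DF over all 19 collagens and lower over these 16, without overlap either way. Of the 18 tested collagens, 4 were called higher and 10 lower in DS than in DF (20.6% and 5.95% of all tested genes), with a median log2 difference of -1.46 against 0.53 over all genes. In DP against DF, 4 were higher and 9 lower (31.5% and 6.87% of all tested genes), with a median of -1.10 against 0.71. Median-ratio scaling made the counts 3 and 13, and 2 and 10. These medians are smaller in size than the differences of Serpinh1. Among the 16 collagens, the largest rises in DS were those of Col11a1 and Col12a1 (log2 differences of 6.90 and 5.43 for DS minus DF). Their DS means were 423 ± 65.2 and 571 ± 32.6 RPKM, against 6.69 ± 1.74 and 20.3 ± 0.0791 in DP. In DF they averaged 2.62 ± 1.15 and 12.3 ± 0.319 RPKM. Their part in the DS ratio over the 16 was not tested. The basement membrane chains Col4a1 and Col4a2 differed less in DS but were higher in both follicle populations (log2 differences of 1.58 and 2.23 for DS minus DF, 1.78 and 2.17 for DP minus DF). Col4a1 was not called with median-ratio scaling (0.95 and 0.94).

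**Figure D3:**
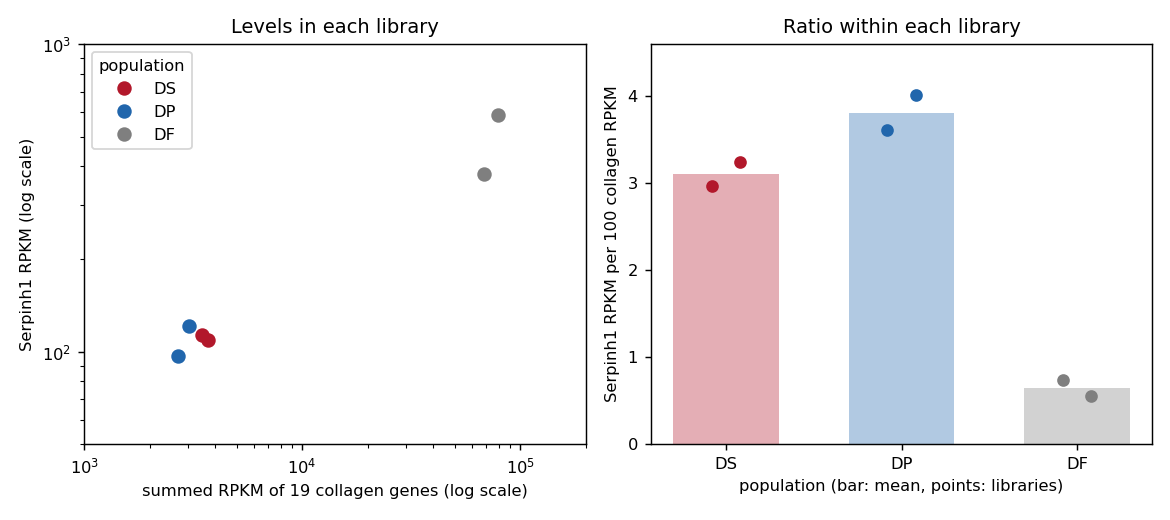
Left, Serpinh1 RPKM against the summed RPKM of 19 collagen genes, both on log axes, 1 point per library for DS, DP and DF. Right, Serpinh1 RPKM per 100 collagen RPKM within each library, with points for libraries and bars for the means. The DF libraries are highest on both axes on the left and lowest on the right, at 0.743 and 0.555, where 96.1% of their collagen sum is Col1a1, Col1a2 and Col3a1.

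Genes for the enzymes and chaperones that work with Serpinh1 on collagen were on both sides. Of 35 tested, 8 were called higher in DS than in DF and 9 lower, where 20.6% and 5.95% of all tested genes were. Median-ratio scaling made these 1 and 14, and the median log2 difference was -0.24. In DP against DF, 8 were higher and 13 lower, where 31.5% and 6.87% of all tested genes were. Median-ratio scaling turned these into 3 and 22, and the median was -0.77. Creb3l1, a transcription factor gene that acts on collagen and secretory genes, averaged 59.8 ± 2.25 RPKM in DS and 4.83 ± 1.38 in DP, against 381 ± 52.2 in DF. The prolyl hydroxylase subunit gene P4ha2 averaged 6.89 ± 0.857 RPKM in DS and 25.9 ± 10.4 in DP, against 215 ± 1.82 in DF. The matrix protein gene Sparc was lower in DS and in DP than in DF too (log2 differences of -2.42 and -5.22). In the opposite direction, the lysyl hydroxylase gene Plod2 averaged 20.5 ± 4.75 RPKM in DS and 152 ± 11.05 in DP, against 6.09 ± 1.25 in DF, and was higher in both. Pdia6, a disulphide isomerase, was called higher in DS and in DP than in DF (2.02, adjusted p = 0.0147, and 2.15, adjusted p = 0.00915) but in neither with median-ratio scaling (1.47 and 1.40).

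Of the 7 clade B genes tested, 5 were called higher in DS than in DP, with either scaling, where 9.42% of all tested genes were, or 11.5% with median-ratio scaling. Serpinb6a, an inhibitor of trypsin-like proteases, was the most abundant. It had 146 and 144 RPKM in DS and 38.7 and 30.2 in DP, against 43.0 and 52.4 in DF. DS lay above both others without overlap. It was called higher in DS than in DF (log2 difference 1.59, SE 0.18, adjusted p = 0.00185) and than in DP (2.05, SE 0.18, adjusted p = 0.000768), and DP minus DF was -0.46 (adjusted p = 0.0672). With median-ratio scaling the DS minus DF difference was 0.96 (adjusted p = 0.0066), just short of the minimum, and the DP minus DF difference was called lower (-1.29, adjusted p = 0.00189).

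Its neighbour on chromosome 13, Serpinb6c, was nearly confined to DS, with 7.67 and 11.3 RPKM in DS and 0.054 and 0 in DP, against 0.123 and 0.196 in DF. Both DS libraries stood far above the other 4, with a log2 difference of 3.16 for DS minus DF (SE 0.24, adjusted p = 0.000552) and 3.33 for DS minus DP (SE 0.24, adjusted p = 0.000392). Serpinb6c passed the filter through its DS values alone, which bears on these tests and on the clade B count. With a pseudocount of 0.1 RPKM these were 5.20 and 6.25. Serpinb9, the inhibitor of granzyme B, averaged 4.72 ± 0.397 RPKM in DS and 0.106 ± 0.0445 in DP, against 1.46 ± 0.0397 in DF. It was called higher in DS and lower in DP than in DF (log2 differences of 1.21, adjusted p = 0.00521, and -1.16, adjusted p = 0.00465), and median-ratio scaling ended the DS minus DF call (0.78, adjusted p = 0.0315). Serpinb9b, which lies beside Serpinb9, missed the filter with 0.948 and 2.04 RPKM in DS and 0.0198 and 0.0248 in DP, against 0 and 0.0245 in DF. With no filter on low values it was called higher in DS than in DF (1.27, adjusted p = 0.0136) and than in DP (1.25, adjusted p = 0.0165). The remaining chromosome 13 genes were at or near 0 apart from Serpinb1a and, in 1 DF library, Serpinb6b (1.48 RPKM, against 0.0344 in the other).

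Serpinb8, whose human counterpart inhibits furin, had 12.6 and 10.4 RPKM in DS and 2.90 and 1.94 in DP, against 11.2 and 10.7 in DF. DS and DF overlapped and DP was lower than both, with log2 differences of -1.82 in DP against DF (SE 0.22, adjusted p = 0.00209) and 1.88 in DS against DP (SE 0.22, adjusted p = 0.00243). DS minus DF was 0.06 (adjusted p = 0.846). Serpinb1a, an inhibitor of neutrophil proteases, was likewise lowest in DP, averaging 4.48 ± 2.03 RPKM in DS and 0.858 ± 0.578 in DP, against 3.83 ± 0.77 in DF. It was called lower in DP than in DF (-1.40, adjusted p = 0.0209) and higher in DS than in DP (1.55, adjusted p = 0.0256). Its DP minus DF call ended without DF replicate 1 (adjusted p = 0.0603), DF replicate 2 (0.0832) or DP replicate 1 (0.0971), and its DS minus DP call without DP replicate 1 (0.123) or DS replicate 2 (0.101).

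The epidermal members were low. Serpinb5 (maspin), a gene of epithelial cells, averaged 2.37 ± 0.954 RPKM in DS and 3.44 ± 0.434 in DP, against 1.97 ± 0.516 in DF, and was not called in any comparison. Serpinb13, of stratified epithelia, averaged 2.02 ± 0.183 RPKM in DS and 2.33 ± 0.385 in DP, against 0.919 ± 0.114 in DF, with log2 differences of 0.65 for DS minus DF (adjusted p = 0.0438) and 0.79 for DP minus DF (adjusted p = 0.0191) that missed the minimum of 1. With a pseudocount of 0.1 RPKM both were called (1.06 and 1.25), and with median-ratio scaling they were 0.30 (adjusted p = 0.289) and 0.30 (adjusted p = 0.271). Beside these, the summed level of 14 keratinocyte markers was 90.9 to 235 RPKM in DS and 166 to 199 in DP, against 89.7 to 99.1 in DF. Of 14 tested markers, 1 was called higher in DS and 4 in DP than in DF (0 and 1 after median-ratio scaling). Over all tested genes the shares were 20.6% and 31.5% (8.01% and 9.34% after median-ratio scaling). No marker was at 0. The part of these markers in the Serpinb5 and Serpinb13 values was not tested.

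In DS against DF, 5 of the 20 tested serpin genes were called higher (Serpind1, Serpine2, Serpinb6c, Serpinb6a and Serpinb9) and 9 lower, where 20.6% and 5.95% of all tested genes were. Those lower were the 7 Serpina3 genes, which are related neighbours, with Serpinf1 and Serpinh1. In DP against DF, 2 were called higher, Serpine2 among them, and 12 lower, 6 of them Serpina3 genes, where 31.5% and 6.87% of all tested genes were. In DS against DP, 7 were called higher and 5 lower, 3 of the latter Serpina3 genes, where 9.42% and 12.8% of all tested genes were. In either direction these were 14, 14 and 12 of the 20 genes, against 26.6%, 38.3% and 22.2% of all tested genes. The DS and DP comparisons with DF share the DF libraries. With median-ratio scaling the counts were 3 and 9 for DS against DF (8.01% and 9.94% of all tested genes), 1 and 14 for DP against DF (9.34% and 13%) and 7 and 5 for DS against DP (11.5% and 9.81%). The 20 genes had median log2 differences of -0.39 in DS against DF, -1.14 in DP against DF and -0.28 in DS against DP, beside 0.53, 0.71 and -0.17 over all tested genes. Without DF replicate 1, 7 genes in place of 12 were called lower in DP than in DF. Without DP replicate 1 or 2, the count lower in DS than in DP was 2 or 3 in place of 5.

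**Figure D4:**
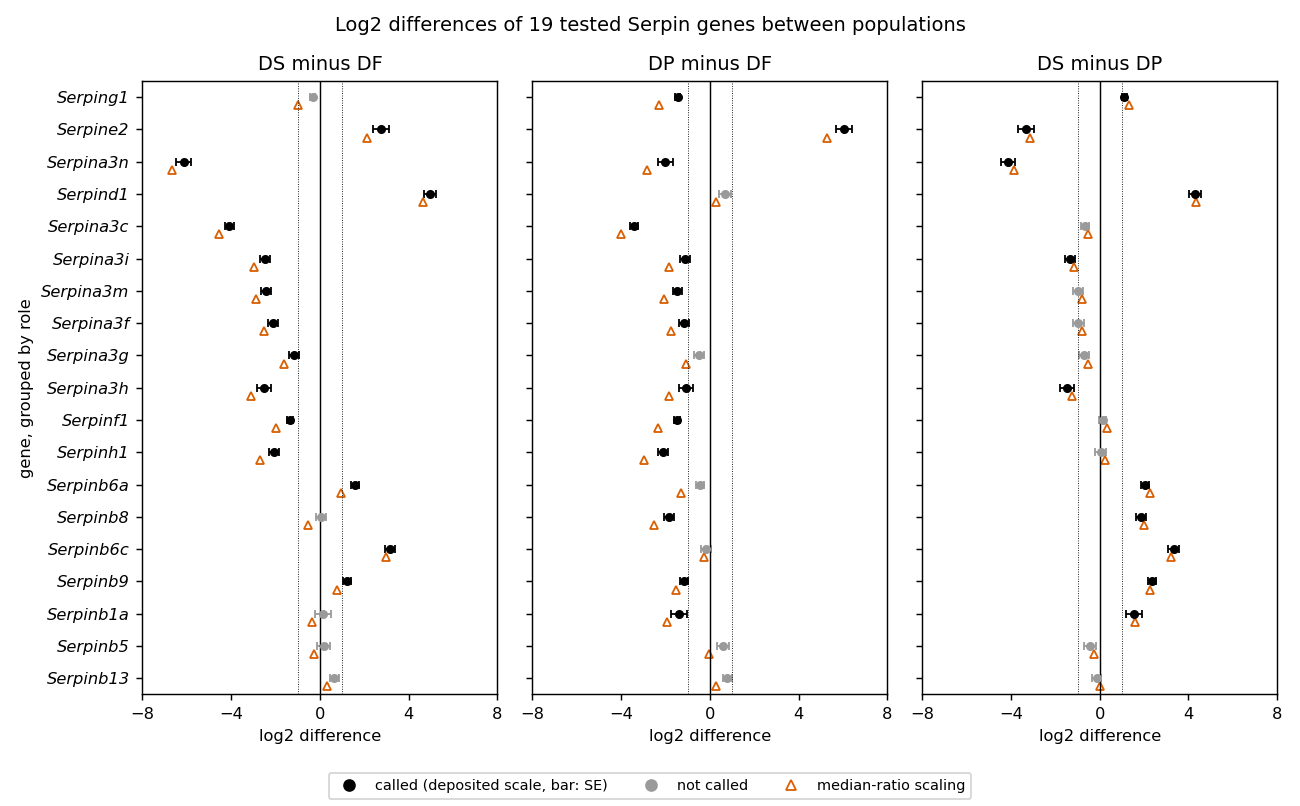
Log2 difference in RPKM + 1 for 19 tested serpin genes in DS minus DF, DP minus DF and DS minus DP, with SE bars, black for called and grey for not called, and open triangles for the value after median-ratio scaling. Dotted lines mark a difference of 1 in either direction. In both comparisons with DF the triangles lie left of the points, and the Serpina3 genes, Serpinf1 and Serpinh1 lie left of 0 in both.

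Serping1 and Serpinf1 together held 73.0% and 70.6% of the summed serpin RPKM in DS and 41.2% and 40.5% in DP, against 71.0% and 74.1% in DF, and the gene with the largest share differed between populations. Serpine2 held 45.8% and 46.0% of the summed serpin RPKM in the DP libraries and 4.07% and 6.18% in DS, against 0.254% and 0.634% in DF. Serping1 held the largest share in DS, 44.9% and 43.4%, with 19.1% and 17.3% in DP and 29.9% and 34.1% in DF. Serpinf1 held 28.1% and 27.2% in DS and 22.1% and 23.2% in DP, against 41.0% and 40.0% in DF, where it was first. Serpinh1 held 5.91% to 7.37% in the follicle populations, against 20.2% and 15.5% in DF. Clade B genes held 11.7% and 12.02% in DS, 3.00% and 2.28% in DP and 2.17% and 3.04% in DF. These shares are taken within a library and need no scaling between libraries. The ratio of Serpine2 to Serpinf1 was 0.145 and 0.227 in DS and 2.07 and 1.99 in DP, against 0.00619 and 0.0159 in DF, so the 3 populations were separate on this measure too.

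**Figure D5:**
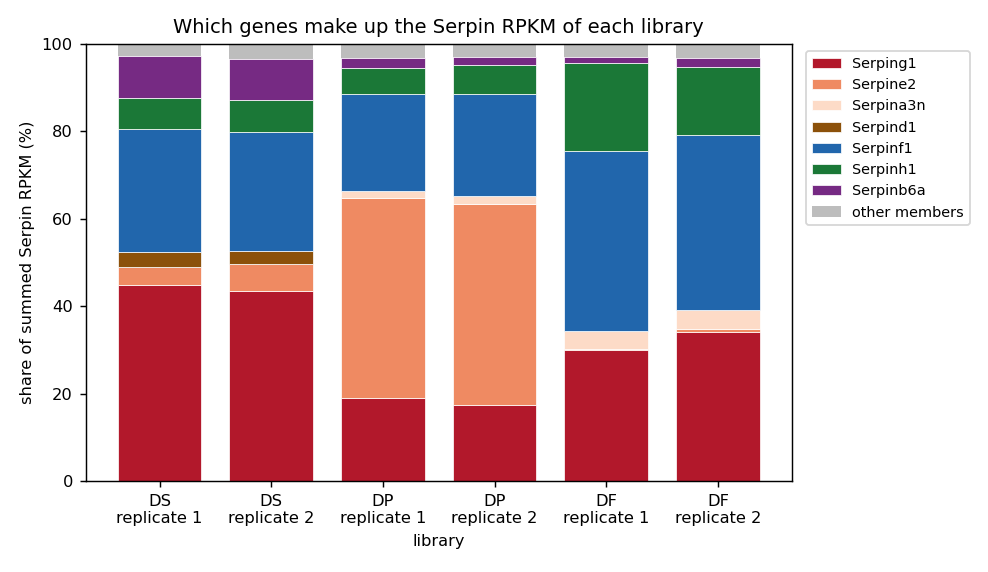
Share of the summed RPKM of all 65 serpin genes held by each of 7 genes and by the other members, in percent, 1 stacked bar per library of DS, DP and DF. Serpine2 takes 45.8% and 46.0% of the DP bars, Serping1 44.9% and 43.4% of the DS bars and Serpinf1 41.0% and 40.0% of the DF bars.

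The proteases that serpins act on and the receptors that clear the complexes were followed from a list of 43 genes, of which 31 were tested. Of these, 9 were called higher and 3 lower in DS than in DF, 10 higher and 5 lower in DP than in DF, and 6 higher and 6 lower in DS than in DP. The shares of all tested genes were 20.6% and 5.95%, 31.5% and 6.87%, and 9.42% and 12.8%, so the 10 of 31 higher in DP is near its background. With median-ratio scaling these were 5 and 8, 7 and 11, and 6 and 6. The thrombin receptor gene F2r averaged 214 ± 13.1 RPKM in DS and 15.3 ± 6.52 in DP, against 9.04 ± 0.0544 in DF, highest in DS as the thrombin inhibitor gene Serpind1 was (F2r log2 difference 4.42 for DS minus DF, adjusted p = 0.000344). The thrombin gene F2 itself did not reach 1 RPKM in 2 libraries. Masp1, a protease of the lectin pathway of complement that Serping1 inhibits, averaged 167 ± 2.13 RPKM in DS and 518 ± 74.8 in DP, against 33.8 ± 8.29 in DF, so that DP was highest for Masp1 and lowest for Serping1. Masp1 was called higher in both comparisons with DF (2.29 and 3.91). The genes of the other proteases named for Serping1, given here after their values were seen, differed from it. C1ra averaged 29.1 ± 3.04 RPKM in DS and 4.22 ± 0.763 in DP, against 15.3 ± 1.27 in DF. It was called lower in DP than in DF (-1.65), so it was lowest in DP as Serping1 was. C1s1 and the plasma kallikrein gene Klkb1 were not called in any comparison. With median-ratio scaling Klkb1 was called lower in DS and in DP than in DF.

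Among clearance receptors, Vldlr, a lipoprotein receptor, averaged 6.86 ± 2.9 RPKM in DS and 45.4 ± 6.29 in DP, against 2.96 ± 0.04 in DF (3.54 for DP minus DF, adjusted p = 0.000607). Sdc4, a heparan sulphate proteoglycan, averaged 19.98 ± 5.88 RPKM in DS and 293 ± 7.42 in DP, against 28.2 ± 1.54 in DF (-3.84 for DS minus DP, adjusted p = 0.000183). Not all receptors were highest in DP. Lrp1, named after its values were seen, averaged 302 ± 10.7 RPKM in DS and 181 ± 3.89 in DP, against 234 ± 4.62 in DF. It was not called in any comparison, but was called lower in DP than in DF with median-ratio scaling (-1.22). The secreted protease genes Htra1 and Htra3 were lower in both follicle populations (log2 differences of -2.52 and -2.56 for DS minus DF, and -4.52 and -2.34 for DP minus DF). Prss23, another serine protease gene, averaged 67.1 ± 4.63 RPKM in DS and 10.1 ± 0.609 in DP, against 16.3 ± 3.02 in DF, and Prtn3, the neutrophil proteinase 3 gene, averaged 0.0855 ± 0.121 RPKM in DS and 40.9 ± 2.54 in DP, against 0.993 ± 1.09 in DF. The plasminogen activator genes, named after their values were seen, had low values in all populations, with Plat at 2.38 ± 0.128 RPKM in DS and 1.67 ± 0.531 in DP, against 4.78 ± 1.33 in DF, and Plau at 2.71 ± 0.517 RPKM in DS and 1.80 ± 0.0894 in DP, against 3.33 ± 0.869 in DF. Plat was called lower in DP than in DF (-1.11, adjusted p = 0.0155) and Plau was not (-0.61, adjusted p = 0.069), or both with median-ratio scaling (-1.74 and -1.22).

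A list of extracellular serine protease inhibitors of other families, with related or similarly named proteins, went in both directions. Not every listed gene encodes an established inhibitor of such proteases, Pi16, Itih5 and Reck being among those that do not. Of 15 tested, 6 were called higher and 2 lower in DS than in DF, 3 higher and 2 lower in DP than in DF, and 3 higher and 3 lower in DS than in DP. Over all tested genes the shares were 20.6% and 5.95%, 31.5% and 6.87%, and 9.42% and 12.8%. After median-ratio scaling the counts were 3 and 3, 1 and 3, and 3 and 3. Wfdc1 averaged 40.3 ± 6.46 RPKM in DS and 2.59 ± 0.207 in DP, against 0.992 ± 0.312 in DF (4.37 for DS minus DF, adjusted p = 0.000176). Slpi, an inhibitor of leukocyte elastase, averaged 12.4 ± 2.34 RPKM in DS and 38.1 ± 6.63 in DP, against 0.942 ± 0.726 in DF (2.83 for DS minus DF and 4.37 for DP minus DF). Pi16, a fibroblast gene, averaged 3.52 ± 0.862 RPKM in DS and 17.4 ± 0.782 in DP, against 43.0 ± 14.0 in DF (-3.26 for DS minus DF, adjusted p = 0.000781). Itih5 averaged 30.2 ± 1.65 RPKM in DS and 0.819 ± 0.276 in DP, against 9.39 ± 1.08 in DF (4.11 for DS minus DP, adjusted p = 0.000145).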

How the data were processed

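The authors deposited a table of RPKM values, with 1 row per gene and 1 column per library. Per the labels' protocols, RNA of the sorted cells was amplified with the NuGEN Ovation system before library construction. Salmon 1.9.0, DESeq2 1.28.1 and the build GRCm39 stand in the submitters' processing notes, with no role given. The sources used here give no annotation, filter or read total, so no counting interval was set. The 14664 genes that reached 1 RPKM in 2 or more libraries were fitted as log2(RPKM + 1) in limma 3.58.1 (R 4.3.3), with a mean per population over all 6 libraries and a trended eBayes step (residual degrees of freedom 3, prior 2.62). Each of the 3 comparisons had two-sided tests and Benjamini-Hochberg adjustment over its tested genes. Called means adjusted p under 0.05 together with a log2 difference of 1 or more in size. SE values are on the log2 scale and SD values in RPKM; a difference on this scale understates the change of low genes. The fit was tested on simulated data.

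The family, roles and lists were chosen with earlier results of these data known. Values in every library are given for tested genes that average at least 10 RPKM in a population and are called in a comparison, and for others as ranges or means. Listed genes named are the called ones with the largest differences, unless said otherwise. The values of 1 tested serpin gene and 1 other listed gene are not reported here; both remain in the counts. All 65 genes matched RefSeq by gene ID, and 54 had a promoter window. Deposited values have no coordinates here, and those printed belong to the RefSeq windows. Window pairs were aligned globally with Biopython 1.88. The 14 alternatives were median-ratio scaling, a pseudocount of 0.1 RPKM, omission of the filter, its minimum raised to 5 RPKM, the same sum without Mir6236, eBayes without a trend, only the 2 populations compared, a replicate block and leaving out each library.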

Additional observations from a re-analysis of the deposited data

How the results depend on the processing

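Of 60 pairs of a tested serpin gene and a comparison, 40 were called, and 28 of these calls held in every alternative that tested the gene; no called difference changed direction. Median-ratio scaling gave 3 genes called higher in DS minus DF and 1 in DP minus DF. A pseudocount of 0.1 gave 4 called higher in DP minus DF and 8 called lower in DS minus DP. Leaving out 1 library gave 4 to 5 higher and 7 to 9 lower in DS minus DF, 1 to 2 higher and 7 to 12 lower in DP minus DF, and 5 to 7 higher and 2 to 5 lower in DS minus DP.

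Differences that were not called and changed sign were those of Serpinb1a for DS minus DF (-0.38 with median-ratio scaling, -0.10 with the same sum without Mir6236, and -0.25 to 0.53 with 1 library left out), Serpinb5 for DS minus DF (-0.29, -0.044, and -0.13 to 0.46) and for DP minus DF (-0.032 with median-ratio scaling), Serpinb8 for DS minus DF (-0.53, -0.22, and -0.063 to 0.18), Serpinb13 for DS minus DP (0.0054 with median-ratio scaling) and Serpinh1 for DS minus DP (-0.12 to 0.20 with 1 library left out). The cause was not tested.

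The replicate block gave 5 higher and 9 lower for DS minus DF, 2 and 12 for DP minus DF and 7 and 5 for DS minus DP, the counts of the fit without it; the labels tie no replicate numbers together, and the deviations of same-numbered libraries correlated at -0.03 to -0.07. A lone library of a population is assumed to vary like the others. The lower depth of DS limits what its values near 0 can show.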
